A study of Mus musculus with 4 samples.

Results

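Expression of 34 imprinted genes of the mouse was examined in primary cultures of inner ear cells. The members were chosen by gene symbol, as genes known to be imprinted, with coding and noncoding members, and all 34 were found among the 24346 symbols of the deposited files. RNA sequencing profiles were available for 2 vestibular and 2 cochlear samples, numbered 1 and 2 within each group. The vestibular organs sense motion and gravity, the cochlea senses sound, and the series was designed to compare gene expression between cells grown from these parts. The labels of all 4 give inner ear as the tissue and name no treatment. The sources used here do not give strain, genotype, age or the number of animals, and nothing says that the 2 samples of a group came from separate cultures, so p-values measure only the spread between these samples.

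An imprinted gene is expressed mainly from the copy inherited from a single parent. The choice is laid down as DNA methylation in the egg or sperm at imprinting control regions, and is kept in the body by proteins such as the zinc finger factor ZFP57 and the DNA methyltransferase DNMT1. Most imprinted genes lie in clusters, where a long noncoding RNA expressed from a single parental copy often lies beside protein-coding genes with opposite expression. Many of the proteins act on fetal growth, and many of the genes are expressed most strongly in embryonic and mesenchymal tissue and fall after birth. The files give a single value per gene, so the parental copies cannot be told apart here, and the allele named for each gene below is background.

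By that background 20 of the members are expressed from the paternal copy, 13 from the maternal copy, and Gnas from either copy depending on the transcript. Values are FPKM (fragments per kilobase of transcript, scaled to the fragments mapped in the library), in which levels of different genes can be set side by side. Genes with a mean of at least 1 FPKM over the 4 libraries were kept for testing, which were 13200 genes in all and 22 of the 34 members. The filter is on the mean of both groups. Mirg, at a mean of 0.547 FPKM in the cochlear cultures, passed through its vestibular values.

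Promoter windows from RefSeq (build GRCm38.p6, 250 bases before to 50 bases after a transcript start, 5′ to 3′ on the strand of the gene) were found for 28 of the 34 members, in 41 windows, and not for H19, Rtl1, Cdkn1c, Sgce, Peg10 and Impact. The windows below are those of the genes on which the results turn. Meg3 leads the group of noncoding RNAs that stood higher in vestibular cultures, Airn had the smallest p among the members, Mest had the largest log2 difference, and Peg3 shares its start region with Usp29. Both strands were searched. Capitals mark the letters TGCCGC, which ZFP57 recognises when methylated, on either strand, so that a match on the opposite strand is printed as its reverse complement. Capitals also mark the cAMP response element TGACGTCA, which reads the same on both strands. This second motif was added after the sequences were seen, and matches of the 2 motifs cannot overlap each other.
Meg3, chr12:109540746-109541045, plus strand: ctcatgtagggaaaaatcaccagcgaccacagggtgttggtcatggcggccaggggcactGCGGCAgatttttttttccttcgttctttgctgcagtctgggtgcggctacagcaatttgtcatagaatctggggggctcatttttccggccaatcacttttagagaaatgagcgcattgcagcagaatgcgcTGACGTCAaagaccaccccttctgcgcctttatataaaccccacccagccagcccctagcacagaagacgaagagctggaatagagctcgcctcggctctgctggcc
Airn, chr17:12741061-12741360, plus strand: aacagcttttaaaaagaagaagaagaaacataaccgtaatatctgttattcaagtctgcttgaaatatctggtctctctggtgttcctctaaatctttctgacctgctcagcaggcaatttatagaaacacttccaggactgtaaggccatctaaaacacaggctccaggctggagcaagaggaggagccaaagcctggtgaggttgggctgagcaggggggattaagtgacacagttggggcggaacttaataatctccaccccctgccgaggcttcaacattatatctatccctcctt
Mest, chr6:30737800-30738099, plus strand: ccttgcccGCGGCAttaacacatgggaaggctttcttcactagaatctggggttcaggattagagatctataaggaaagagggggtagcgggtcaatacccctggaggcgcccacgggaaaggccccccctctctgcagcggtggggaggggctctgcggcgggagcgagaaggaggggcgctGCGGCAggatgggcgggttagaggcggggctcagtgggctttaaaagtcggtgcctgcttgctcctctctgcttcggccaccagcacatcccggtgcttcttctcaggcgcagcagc
Peg3, chr7:6730370-6730669, minus strand: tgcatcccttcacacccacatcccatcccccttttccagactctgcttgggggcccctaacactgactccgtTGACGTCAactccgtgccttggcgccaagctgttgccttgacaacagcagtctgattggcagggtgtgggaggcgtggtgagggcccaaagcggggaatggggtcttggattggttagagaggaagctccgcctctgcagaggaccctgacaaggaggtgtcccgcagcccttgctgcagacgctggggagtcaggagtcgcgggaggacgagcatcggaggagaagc
Usp29, chr7:6730333-6730632, plus strand: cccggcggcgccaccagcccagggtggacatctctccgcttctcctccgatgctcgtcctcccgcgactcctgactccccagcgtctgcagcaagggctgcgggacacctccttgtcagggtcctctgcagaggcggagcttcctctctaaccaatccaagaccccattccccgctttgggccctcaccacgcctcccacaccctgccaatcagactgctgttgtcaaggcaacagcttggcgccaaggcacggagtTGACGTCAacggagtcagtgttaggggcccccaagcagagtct

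The Peg3 and Usp29 windows are read from opposite strands and share 263 bases. TGCCGC was found in 10 of the 41 member windows (24.4%), against 11.6% of all 32851 windows, and in 9 of the 28 member genes (32.1%), against 13.1% of all genes with a window. TGCCGC holds a CpG, and the member windows were also richer in CpG, at a median of 11 per window against 7 over all windows. The 9 genes were Copg2, Grb10, Meg3, Mest, Nap1l5, Nnat, Plagl1, Snrpn and Zim1. The Mest window shown held it at 2 places and the Meg3 window shown at 1. Another Mest window, from 30737803, overlaps the one shown and holds the same 2 places, so both count among the 10 windows. A further Mest window, from 30733256, and a further Meg3 window, from 109545148, held no match. TGACGTCA was found in the windows of Meg3, Peg3 and Usp29, where the Peg3 and Usp29 matches are 1 site in the shared bases, and 1.79% of all windows hold it. Since these sequences prompted the search, the match adds no comparison. The Meg3 window at the start shown held 13 CpG dinucleotides, the Mest window 17 and the Airn window 3. A match is a description of letters, and neither methylation nor binding was measured.

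Of the 22 kept members, 11 stood higher in both vestibular libraries than in both cochlear libraries (50%), against 26.9% of all kept genes. In both cochlear libraries 6 stood higher (27.3%), against 28.4%. The members were chosen with earlier results of these data known, so the shares in this paragraph are descriptions and not a test of the group. In limma, a linear model that shares the spread across genes, 0 of the 22 passed an adjusted p of 0.05, and 0.0303% of all kept genes did. At an unadjusted p under 0.05 there were 7 members higher in vestibular cultures (31.8%, against 7.61% of all kept genes) and 1 higher in cochlear cultures (4.55%, against 10.6%). The 7 were Meg3, Rian, Mirg, Grb10, Ndn, Nnat and Impact, and the 1 was Airn. Meg3, Rian and Mirg are neighbouring noncoding RNAs of the Dlk1-Meg3 domain, so they are not independent entries in these counts. Without Mirg, which passed the filter through the group where it is high, 6 of 21 members had such a p on the vestibular side (28.6%), and 10 of 21 lay above in both vestibular libraries (47.6%). That count was added after the data were seen. The median log2 difference, vestibular minus cochlear on the log2(FPKM + 1) scale, was 0.50 over the 22 members and 0.01 over all kept genes. The median depended on the filter, at 0.15 over 33 members with no filter and 0.25 over 16 members with a mean of at least 5 FPKM. An exact permutation test (2-sided) of a single gene cannot go below p = 0.333 with groups of 2, so no member could be called that way.

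The libraries also differed in the markers of other cells. Fibroblast markers were higher in both vestibular libraries for 15 of 19 genes and in both cochlear libraries for 0, with summed levels of 7805 and 13690 FPKM in vestibular 1 and 2, against 4488 and 3753 in the cochlear libraries. Epithelial markers summed to 1367 and 157.9 FPKM in the vestibular pair, against 2465 and 3076 in the cochlear pair, with 15 of 17 kept genes higher in both cochlear libraries. Vestibular library 2 stood apart in cartilage markers (4375 FPKM, against 229.9 to 784.2 in the other libraries) and otic fibrocyte markers (3742 against 501.9 to 798.5). It also stood apart in melanocyte markers (232.6 against 11.55 to 14). Neuron markers summed to 31.6 and 17.3 FPKM in the vestibular pair, against 18 and 28.3 in the cochlear pair. Of their 4 kept genes, 3 were higher in both vestibular libraries and 1 in both cochlear libraries. Cochlear library 2 stood apart in macrophage markers (31.4 FPKM, against 7062 to 9325). Sensory epithelium markers, the defining genes of the organ's receptor regions, summed to 36.0 to 177.6 FPKM, and 7 of 14 were kept. Of the 7, 2 were higher in both vestibular libraries and 2 in both cochlear libraries (26.9% and 28.4% of all kept genes were). Otoa, of the latter, had 29.05 and 128.5 FPKM in the cochlear pair, against 9.40 and 3.61 in the vestibular pair. Skeletal muscle markers, where H19, Dlk1 and Meg3 are known to be high, summed to 0.870 to 3.11 FPKM, with Myod1, Myog, Myf5 and Pax7 listed at 0 in all libraries. The part that cell makeup had in the values below was not tested, and in bulk RNA fewer cells of a type and less RNA per cell cannot be told apart.

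**Figure D1:**
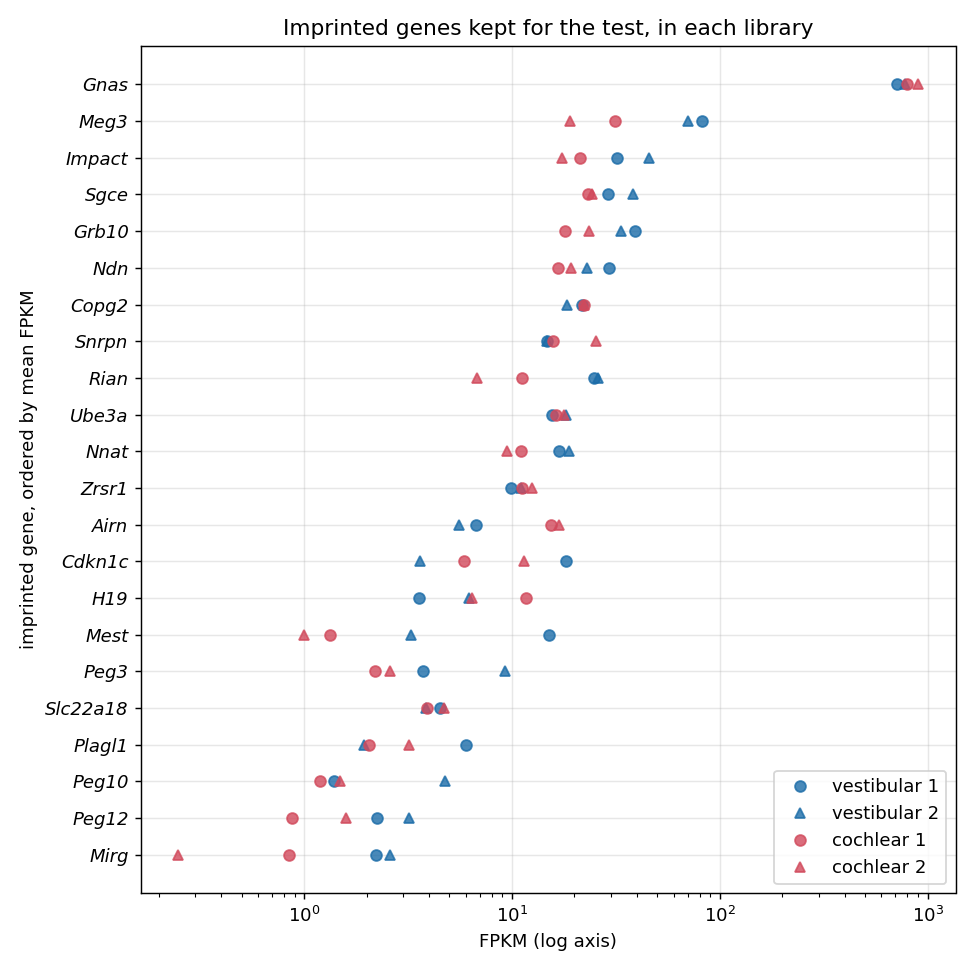
FPKM (log axis) of the 22 kept imprinted genes, ordered by their mean, with 1 point for each library. Gnas lies far to the right at 709.7 to 904.2 FPKM. Blue (vestibular) points lie to the right of red (cochlear) points for Meg3, Rian, Mirg, Peg3, Grb10, Ndn, Peg12, Mest, Sgce, Nnat and Impact. They lie to the left for H19, Snrpn, Copg2, Gnas, Airn and Zrsr1.

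The noncoding RNAs of the Dlk1-Meg3 domain on chromosome 12 stood higher in vestibular cultures, by 2.81 to 4.38 times in mean FPKM. Meg3, a long noncoding RNA of the maternal copy that is the first unit of this array, lies at 109541001 to 109571726 on the plus strand (mm10). It had 82.1 and 70.2 FPKM in vestibular 1 and 2, against 31.3 and 19.1 in cochlear libraries 1 and 2. Both vestibular values thus lay above both cochlear values, and cochlear library 2 was the lowest. The log2 difference was 1.60 (SE 0.28, limma unadjusted p 0.00585, adjusted p 0.150).

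Rian, which carries small nucleolar RNAs of the array in its introns, lies at 109603940 to 109661716. It had 24.8 and 25.8 FPKM in the vestibular pair, against 11.2 and 6.82 in the cochlear pair (log2 difference 1.43, SE 0.26, limma unadjusted p 0.00621, adjusted p 0.154). Mirg, the microRNA-containing unit at 109729764 to 109749460, had 2.21 and 2.59 FPKM against 0.846 and 0.248, a log2 difference of 1.16 that is given with no test because the gene passed the filter through its vestibular values. The groups did not overlap in either gene, and the order of the cochlear libraries was the same as for Meg3. The level dropped along the array from Meg3 to Rian to Mirg in every library.

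Meg3 stood at 3.31, 2.72, 2.80 and 2.80 times Rian in vestibular 1, vestibular 2, cochlear 1 and cochlear 2, a narrower range than that of either level. The ratio of Meg3 to Mirg was 37.2, 27.1, 37.0 and 77.0 in the same order. The last ratio rests on Mirg at 0.248 FPKM, a low value at unknown depth, in cochlear library 2. That library was also the one low in macrophage markers, whose part in the values was not tested. Without it the log2 differences were 1.25 for Meg3, 1.11 for Rian and 0.88 for Mirg, and without cochlear 1 they were 1.94, 1.75 and 1.44, with the cochlear value then resting on a single library.

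The protein-coding members of this domain come from the paternal copy and were low. Dlk1, a transmembrane relative of the Notch ligands that holds back fat cell formation, had 1.59 FPKM in vestibular library 1, 0.253 in vestibular library 2, and 0.168 and 0.0437 in the cochlear libraries. Rtl1, a gene derived from a retrotransposon that lies antisense to microRNAs of the array, had 0.146 and 0.0562 FPKM in vestibular 1 and 2, 0.0184 in cochlear 1, and was listed at 0 in cochlear 2. Both genes were under the filter and were not tested, and their order over libraries ran from vestibular 1 down to cochlear 2. Of 63 short RNA genes annotated within the 208 kb from Meg3 to Mirg, 61 were listed at 0 in all 4 libraries. The exceptions were Mir369, at 2397 FPKM in vestibular library 1 only, and Mir3072, at 890.4 in vestibular library 2 only. Both lie inside Mirg on the same strand, and a gene this short reaches such a value from few fragments. The libraries were of an mRNA type, so no absence of short RNAs is read from the values of 0.

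**Figure D2:**
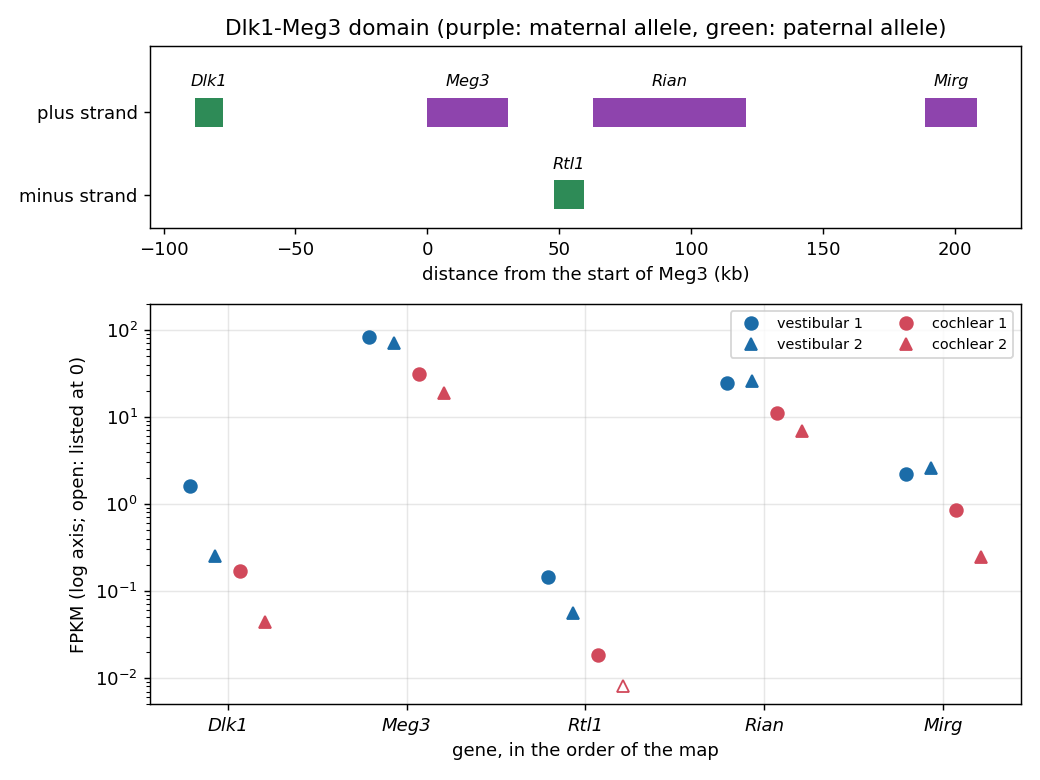
Above, the Dlk1-Meg3 domain drawn to scale as distance from the Meg3 start in kb, by strand; below, FPKM (log axis) of each gene with 1 point for each library and an open symbol at the bottom for a gene listed at 0. For all 5 genes both vestibular points lie above both cochlear points, as for 26.9% of all kept genes, and cochlear library 2 is the lowest. Dlk1 and Rtl1 were under the filter, and Mirg passed it through its vestibular values. Genes of a single domain are not independent entries, so the count is a description.

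Of the other long noncoding RNAs, Airn was higher in the cochlear pair at an unadjusted p under 0.05, H19 did not pass, and Kcnq1ot1 was low with overlapping groups. Airn, a paternally expressed RNA that silences neighbouring genes in cis, spans 12741311 to 12860136 of chromosome 17 (plus strand). It had 6.74 and 5.57 FPKM in the vestibular pair, against 15.4 and 16.8 in the cochlear pair, 2.61 times as much in the mean. The groups were far apart beside the gap within each group, with a log2 difference of -1.26 (SE 0.15, limma unadjusted p 0.00135, adjusted p 0.107). The difference ran from -1.38 to -1.14 on leaving out each library in turn. Airn shares 28354 bases with a gene on the opposite strand, itself protein-coding and not a member, which had 29.9 and 29.6 FPKM in the vestibular pair, against 38.9 and 42.4 in the cochlear pair, and 19058 bases with Mas1, at most 0.570 FPKM. The library kit marks strand, but the setting used in counting is not given, so fragments of these genes may be shared with Airn.

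H19, a maternally expressed RNA that carries a microRNA in its first exon and is abundant in fetal tissue, spans 142575529 to 142578143 of chromosome 7 (minus strand). It had 3.57 and 6.20 FPKM in the vestibular pair, against 11.6 and 6.46 in the cochlear pair. Vestibular library 2 and cochlear library 2 nearly met, and the difference did not pass (log2 difference -0.76, SE 0.39, limma unadjusted p 0.127, adjusted p 0.385). It ran from -1.14 without cochlear 2 to -0.38 without cochlear 1. Kcnq1ot1, the antisense RNA of the Kcnq1 domain, was low in every library, at 0.265 to 0.400 FPKM, with groups that overlapped. It lies wholly inside Kcnq1 on the other strand, which had 4.05 and 1.502 FPKM in the vestibular pair, against 6.64 and 8.31 in the cochlear pair. Noncoding members thus lay on both sides. With groups that did not overlap, 3 of the 5 kept were above in the vestibular pair (26.9% of all kept genes were). Above in the cochlear pair were 2 (28.4% of all kept genes were). The 3 were Meg3, Rian and Mirg, neighbours in the Dlk1-Meg3 domain, and Mirg passed the filter through its vestibular values. The count is thus a description and no comparison with those shares.

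Among the regulators of growth and signalling, Grb10 stood higher in vestibular cultures. Grb10 encodes an adaptor that dampens signalling of the insulin receptor, and spans 11930508 to 12038683 of chromosome 11 (minus strand). It had 39.3 and 33.4 FPKM in the vestibular pair, against 17.9 and 23.5 in the cochlear pair. The groups did not overlap (log2 difference 0.79, SE 0.19, limma unadjusted p 0.0153, adjusted p 0.199), and the vestibular mean was 1.75 times the cochlear mean.

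Ndn (necdin), a MAGE family protein that restrains cell division, had 29.4 and 23.0 FPKM in the vestibular pair, against 16.7 and 19.2 in the cochlear pair. The groups did not overlap (log2 difference 0.51, SE 0.17, limma unadjusted p 0.0446, adjusted p 0.265). Magel2, its MAGE family neighbour on chromosome 7, was listed at 0 in all 4 libraries. An exact 0 in such files can be a failed estimate, so no level is read from it.

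Cdkn1c, the gene of the cyclin-dependent kinase inhibitor p57, had 18.2 FPKM in vestibular library 1 and 3.61 in vestibular library 2, with 5.90 and 11.4 in the cochlear libraries between them. The vestibular libraries were thus the highest and the lowest, and the log2 difference of 0.03 (SE 0.83, limma unadjusted p 0.975) turned to -1.004 without vestibular 1 and 1.06 without vestibular 2. Plagl1, a zinc finger transcription factor gene that halts cell division, was likewise highest in vestibular library 1, at 6.01 FPKM, and lowest in vestibular library 2, at 1.94, with 2.05 and 3.21 in the cochlear libraries. Its log2 difference was 0.34 (SE 0.51, limma unadjusted p 0.546), with -0.29 without vestibular 1 and 0.97 without vestibular 2. Phlda2, a growth-restraining gene of the placenta, had 0.990 FPKM in vestibular 1, 0 in vestibular 2, and 1.05 and 1.19 in the cochlear libraries. For Cdkn1c and Plagl1 the extremes were thus the vestibular libraries, which also differed in the cartilage, otic fibrocyte and melanocyte sums given above. Their part in these values was not tested.

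Ascl2, a transcription factor gene of placental and stem cells, had 0.224 and 0.134 FPKM in the vestibular pair, against 0.855 and 0.835 in the cochlear pair, under the filter. Peg12, which encodes a relative of the GSK3-binding FRAT proteins, had 2.24 and 3.21 FPKM against 0.873 and 1.60 (log2 difference 0.74, SE 0.28, limma unadjusted p 0.0638).

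**Figure D3:**
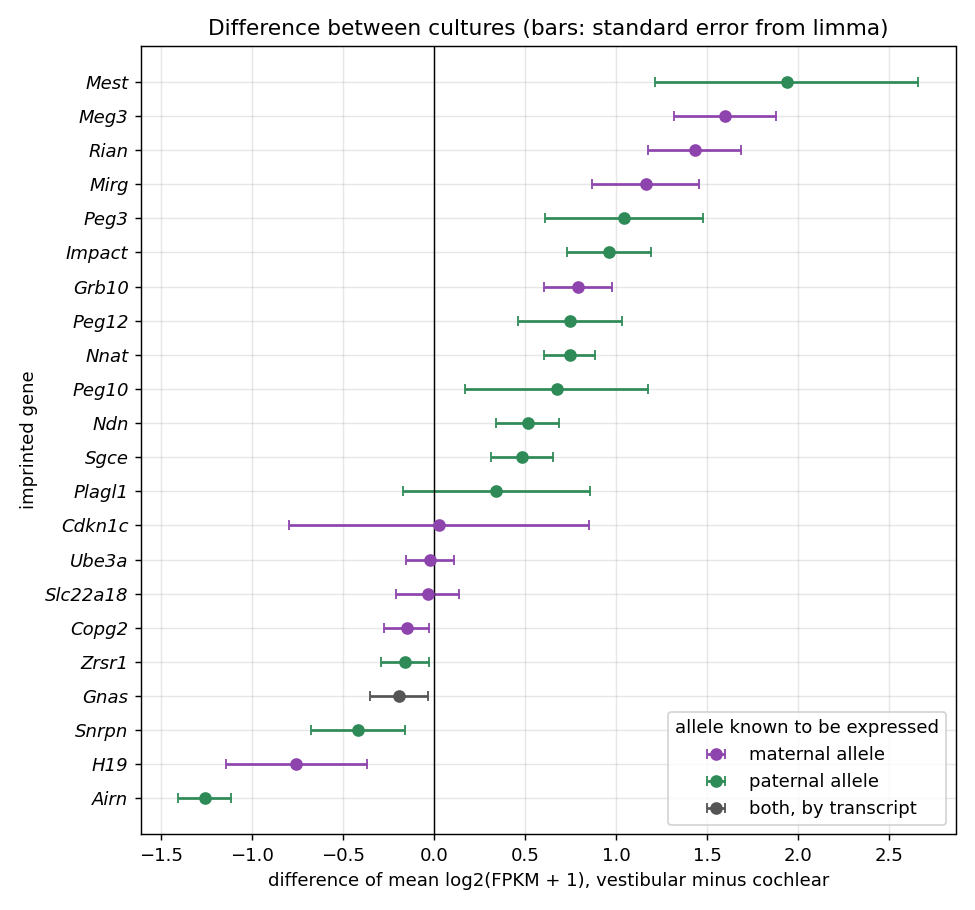
Difference of mean log2(FPKM + 1), vestibular minus cochlear, for the 22 kept members, with bars for the standard error from limma and colours for the allele known to be expressed. Differences run from -1.26 (Airn) to 1.94 (Mest), and maternal and paternal genes lie on both sides of 0.

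Mest had the largest log2 difference of the members, and its size depended on 1 library. Mest encodes a hydrolase-like membrane protein of mesoderm, and spans 30723547 to 30748465 of chromosome 6 (plus strand). It had 15.0 FPKM in vestibular library 1, 3.26 in vestibular library 2, and 1.33 and 0.995 in the cochlear libraries. Both vestibular values lay above the cochlear values, but they differed from each other by 1.91 on the log2 scale. The log2 difference between groups was 1.94 (SE 0.72, limma unadjusted p 0.0597, adjusted p 0.290). It was 0.98 without vestibular 1 and 2.89 without vestibular 2, with the vestibular value then resting on a single library. Copg2, a coatomer subunit gene that overlaps the end of Mest by 912 bases on the other strand, had 21.7 and 18.5 FPKM against 22.3 and 22.3. Its values did not follow those of Mest (log2 difference -0.15, SE 0.12, limma unadjusted p 0.297).

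Peg3, a zinc finger gene of maternal care and fetal growth, was led by vestibular library 2. It had 9.23 FPKM there, 3.74 in vestibular library 1, and 2.19 and 2.59 in the cochlear libraries (log2 difference 1.04, SE 0.44, limma unadjusted p 0.0801). The log2 difference was 0.49 without vestibular 2 and 1.60 without vestibular 1, each with a single vestibular library left. Usp29, a ubiquitin protease gene that starts beside Peg3 on the other strand, with the shared window printed above, had 0.0129 FPKM in vestibular library 2 and was listed at 0 in the other libraries. The maternally expressed neighbour Zim1 had 0.343 FPKM in vestibular 2, 0.0280 in cochlear 1 and 0 in the remaining libraries. So a single member of the Peg3 domain was kept.

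Peg10 and Sgce, which start back to back on chromosome 6, shared a high value in vestibular library 2. Peg10, derived from a retrotransposon, had 4.78 FPKM there, and 1.39, 1.19 and 1.49 in vestibular 1, cochlear 1 and cochlear 2. Its log2 difference was 0.67 (SE 0.50, limma unadjusted p 0.258). It was 0.04 without vestibular 2 and 1.31 without vestibular 1, each with a single vestibular library left. Sgce, which encodes epsilon-sarcoglycan of the dystrophin-linked complex, had 29.1 and 38.4 FPKM in the vestibular pair, against 23.2 and 24.2 in the cochlear pair (log2 difference 0.48, SE 0.17, limma unadjusted p 0.0526), and 0.29 without vestibular 2 or 0.67 without vestibular 1. Sgce stood at 20.9 times Peg10 in vestibular 1, 8.02 in vestibular 2, 19.5 in cochlear 1 and 16.2 in cochlear 2. Asb4, a ubiquitin ligase adaptor gene of the same domain, reached at most 0.442 FPKM. Nap1l5, a nucleosome assembly protein relative, had 0.248 to 1.005 FPKM, with its highest value in vestibular library 2. That library, highest for Peg3, Peg10 and Sgce too, was also highest in cartilage, otic fibrocyte and melanocyte markers. The part of those cells in these values was not tested.

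Nnat and Impact stood higher in both vestibular libraries. Nnat (neuronatin) encodes a small proteolipid of the endoplasmic reticulum, and spans 157560078 to 157562522 of chromosome 2 (plus strand). It had 16.8 and 18.9 FPKM in the vestibular pair, against 11.1 and 9.45 in the cochlear pair (log2 difference 0.74, SE 0.14, limma unadjusted p 0.00747, adjusted p 0.165). All 2445 bases of it lie inside Blcap on the other strand, which had 29.3 and 25.4 FPKM against 25.0 and 27.4, with a log2 difference of 0.06. As for Airn, the strand setting is not given, so fragments of Blcap may be shared with Nnat. The same holds for Mest with Copg2, Zrsr1 with Commd1, Kcnq1ot1 with Kcnq1, Nap1l5 with Herc3 and Ube3a with Snhg14. Impact encodes an inhibitor of the stress kinase GCN2. It had 32.1 and 45.8 FPKM in the vestibular pair, against 21.2 and 17.4 in the cochlear pair (log2 difference 0.96, SE 0.23, limma unadjusted p 0.0161, adjusted p 0.204).

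Among members of general RNA and protein handling, Ube3a and Zrsr1 varied little over the 4 libraries, and Snrpn was highest in cochlear library 2. Ube3a, the ubiquitin ligase gene of Angelman syndrome, which is imprinted only in neurons, had 15.5 and 18.1 FPKM in the vestibular pair, against 16.3 and 17.9 in the cochlear pair (log2 difference -0.02, SE 0.13). Its neighbour Snrpn, which encodes a spliceosome protein, had 14.7 and 14.8 FPKM against 15.8 and 25.3. Snrpn shares 9601 bases with Snurf on the same strand, at 1.83 to 1.93 FPKM, and its difference of -0.42 (SE 0.26, limma unadjusted p 0.186) was -0.09 without cochlear 2 and -0.74 without cochlear 1. Zrsr1, a splicing factor gene derived from a retrotransposed copy in an intron of Commd1, had 9.85 and 11.1 FPKM against 11.2 and 12.5 (log2 difference -0.16, SE 0.13). Mkrn3, a makorin zinc finger gene linked to the timing of puberty, had 0.201 to 0.887 FPKM and was not tested.

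Gnas had by far the highest level of the members. It encodes the stimulatory G protein alpha subunit, which couples receptors to cAMP, and the same symbol holds further imprinted transcripts that the files do not separate. It had 709.7 and 775.1 FPKM in the vestibular pair, against 796.0 and 904.2 in the cochlear pair. The cochlear values were 1.15 times the vestibular values in the mean, and the difference did not pass (log2 difference -0.19, SE 0.16, limma unadjusted p 0.293). For Gnas, Copg2 and Zrsr1 the groups overlapped after quantile normalization. Among transporters, Slc22a18, an organic cation transporter relative of the Kcnq1 domain, had 4.53 and 3.85 FPKM against 3.92 and 4.73 (log2 difference -0.04, SE 0.17). Slc38a4, an amino acid transporter gene of the placenta and liver, had 0.0991 to 1.19 FPKM and was not tested.

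**Figure D4:**
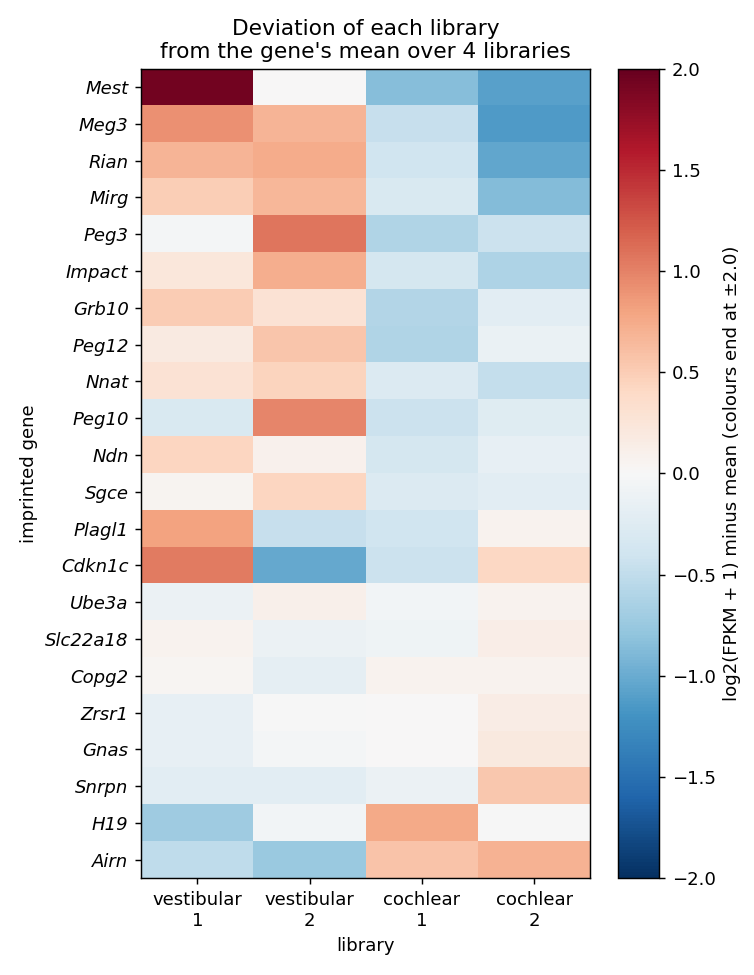
Deviation of each library from the gene's mean over 4 libraries, in log2(FPKM + 1), for the 22 kept members ordered by the difference between groups. Mest, Meg3, Rian, Mirg, Impact, Grb10, Peg12, Nnat, Ndn and Sgce are above their mean in both vestibular libraries. Airn, H19, Snrpn, Gnas and Zrsr1 are below it in both. Plagl1 and Cdkn1c are highest in vestibular 1 and lowest in vestibular 2, and Peg3 and Peg10 are highest in vestibular 2.

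Split by parent, 12 paternal members were kept, with 9 positive and 3 negative log2 differences and a median of 0.59. The 9 maternal members kept had 5 positive and 4 negative and a median of 0.03. Meg3, Rian and Mirg of the Dlk1-Meg3 domain are among the maternal positives. Over all kept genes 6788 differences were positive and 6412 negative. The maternal members ran from -0.76 (H19) to 1.60 (Meg3) and the paternal from -1.26 (Airn) to 1.94 (Mest), so genes of both parents were spread over both sides. In the Kcnq1 domain Cdkn1c stood at 4.03 times Slc22a18 in vestibular 1, 0.937 in vestibular 2, 1.51 in cochlear 1 and 2.40 in cochlear 2. Vestibular library 2 held the highest value of 9 kept members, vestibular 1 and cochlear 2 of 6 each, and cochlear 1 of 1.

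Of a list of 39 further genes reported as imprinted in some tissue, 38 were in the files and 24 were kept, with 0 past the adjusted p in limma, 3 in each direction at an unadjusted p under 0.05, and a median log2 difference of 0.01. The highest were Dcn, the matrix proteoglycan decorin, which is also on the fibroblast list (494.3 and 1542 FPKM against 191.7 and 321.3), the tetraspanin gene Cd81 (417.4 and 418.4 against 530.8 and 552.9), Pon2 and Nap1l4. The host genes of intronic imprinted copies, Commd1, Herc3, Blcap and H13, summed to 124.3 to 129.6 FPKM per library, and 1 of the 4, Herc3, was higher in both cochlear libraries (5.98 and 6.25 against 8.72 and 8.20 FPKM).

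Of 26 genes that set or keep imprints, 22 were kept and 0 passed in limma, with 1 at an unadjusted p under 0.05 in each direction and a median log2 difference of 0.04. Trim28, the corepressor that ZFP57 recruits, had 54.8 and 56.2 FPKM in the vestibular pair, against 52.5 and 53.2 in the cochlear pair. The histone methyltransferase gene Ehmt2 had 58.0 and 49.99 FPKM against 53.4 and 51.9, and Mbd3, of a deacetylase complex, 64.1 and 70.2 against 58.8 and 65.4. Yy1, a zinc finger factor, had 26.2 and 26.2 against 29.8 and 35.3. The list summed to 411.1 and 439.7 FPKM in the vestibular pair, against 416.1 and 429.9 in the cochlear pair.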

How the data were processed

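RNA was sequenced from 4 samples of cultured cells, and the labelled cell type put 2 in the vestibular and 2 in the cochlear group. Per the labels' protocols, RNA was extracted with TRIzol and sequenced with libraries of the stranded TruSeq mRNA type. The authors deposited FPKM values per gene symbol and sample. Cuffdiff 2.2.1, SAMtools 0.1.18, Bowtie2 2.2.8, TopHat2 2.1.1 and the build mm10 are named, per the submitters' processing notes. The role and settings of each, the annotation and the strand setting are not stated by any source used here. FPKM totals ran from 479380 to 519122 per library, and fragments per library are unknown, so no counting interval is given. An exact 0 in such files can be a failed estimate.

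Values were taken as log2(FPKM + 1), which understates differences of low genes, and genes with a mean of at least 1 FPKM entered limma 3.58.1, run in R 4.3.3 (mean-variance trend, 2-sided, Benjamini-Hochberg adjustment over all 13200 genes, threshold 0.05). The fit was tested on simulated data. Positions are from GENCODE M21 on GRCm38, the assembly of mm10. All members are named. For the further imprinted genes, the host genes and the genes that set or keep imprints, up to 4 genes of highest mean are named. The marker lists are given mainly as sums and counts, and Schwann cell, endothelium and cell cycle markers are not described. The members and lists were chosen with earlier results of these data known. Alternatives were another pseudocount, other filters, median ratio scaling, quantile normalization, no trend, the replicate number as a block, and leaving out each library.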

Additional observations from a re-analysis of the deposited data

How the results depend on the processing

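No kept member passed the adjusted threshold of limma under any alternative that kept all 4 libraries, or without Mirg. At an unadjusted p under 0.05 in limma were 9 of 33 members with no filter (2977 of 18257 genes). With a mean of at least 5 FPKM it was 7 of 16 (1867 of 10006 genes). The other alternatives with all 4 libraries had 8 or 9 of 22 (1887 to 2399 of 13200 genes). Mirg is among those counted except at the 5 FPKM filter, where it was not kept. Without it the main count was 7 of 21. The sign held in every alternative for 18 of the 22 kept members. It turned for Cdkn1c with a pseudocount of 0.1 (-0.0085), and on leaving out libraries for Cdkn1c (-1.004 to 1.06), Plagl1 (-0.29 to 0.97), Slc22a18 (-0.147 to 0.0743) and Ube3a (-0.128 to 0.0829). The median of the members was 0.15 with no filter, which adds 11 low members, and 0.25 with a mean of at least 5 FPKM, which leaves 16. Over all genes limma called 4 in the main analysis, 2 with no filter, 0 with the replicate block and 0 to 0 on leaving out libraries, where a lone sample was assumed to vary like the other group (1887 genes at an unadjusted p under 0.05 with the block, 1018 to 2724 on leaving out libraries). Whether same-numbered libraries share an origin is not given. The correlation of their deviations was 0.04 across genes, which cannot decide it with a single pair in each group. With the replicate block 9 of 22 members had an unadjusted p under 0.05 in limma, against 1887 of all 13200 kept genes. Unknown depth limits the members under 1 FPKM.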
